A study of Citrus sinensis with 36 samples.

Results

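The fruit peel of Valencia oranges (VOs) was compared with that of common sweet oranges (COs), both Citrus sinensis, across all gene functions measured by RNA-seq. Members were taken by tissue and variety: the 18 peel libraries of the 36 libraries in the series, 9 from VO and 9 from CO. The VO side, which the sample records label SO, held the Cutter, Delta and Rohde Red strains of Valencia, and the CO side held Jincheng, Taoye and Xianfeng. Each of the 6 varieties had 3 peel libraries from hand-dissected fruits collected at 220 days after flowering (DAF) from untreated trees of a single nursery. At that time COs were mature while VOs were only colouring, so in these samples the variety group and the stage of ripening cannot be told apart. Varieties within a group also share descent, and the 3 varieties of a side are therefore not independent draws of sweet orange germplasm. The number of trees pooled per replicate is given differently in the study's methods and in its sample records.

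Citrus peel consists of a coloured outer layer, the flavedo, which carries oil glands and a waxy cuticle, and a white spongy inner layer, the albedo. During ripening its green chloroplasts lose chlorophyll and thylakoid proteins and become chromoplasts that store carotenoids, a change promoted by abscisic acid (ABA) and ethylene and delayed by gibberellin. The peel also accumulates terpenes, flavonoids, limonoids and cuticular wax.

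The deposited values were FPKM (fragments scaled by gene length and library size) for 29654 genes. Peel libraries held 15.5 M to 17.7 M fragments in genes in CO and 15.1 M to 17.9 M in VO, so depth was alike on both sides. Genes at 0.3 FPKM or more numbered 16880 to 17098 per CO peel library and 17159 to 17297 per VO peel library. The part of this difference in the calls was not tested. A gene was kept when at least 1 variety averaged 0.3 FPKM, and the 3 libraries of a variety were averaged as log2(FPKM + 0.1), which understates the change of genes near 0.1 FPKM. VO was compared with CO in limma with the variety as the replicate (n = 3 varieties on each side), and a gene was called at a Benjamini-Hochberg adjusted p under 0.05 over all genes kept. An exact permutation test of 3 varieties against 3 cannot give a two-sided p below 0.10, so each call rests on the spread that limma shares between genes. Tissue markers did not separate peel from pulp cleanly: the summed FPKM of 26 oil-gland and wax genes ran from 105 to 174 in CO peel, from 86.9 to 142 in VO peel and from 47.6 to 241 in pulp, while that of 14 seed storage genes ran from 5.90 to 14.5 in peel and from 10.8 to 58.9 in pulp. RNA integrity, as tabulated by the study, was lower in VO peel than in CO peel libraries, and its part in the differences was not tested. Fewer cells of a type and less RNA per cell cannot be told apart in such bulk samples.

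Of 18375 genes kept in peel, 3740 were called (20.4%), with 2426 higher in VO (13.2%) and 1314 lower (7.15%). The 6 variety means did not overlap between the sides for any called gene, and this held for 7662 of all genes kept (41.7%). The median log2 difference over all genes was 0.05. Counts per gene list below are to be read against the shares over all genes, 13.2% higher and 7.15% lower. Rescaling each library to a common median moved the calls to 1974 higher and 1689 lower, so the share of higher calls fell from 64.9% to 53.9%, and no gene called both ways changed direction. Leaving out a variety lowered the counts to between 967 and 2188 higher and between 560 and 1194 lower, with the fewest when Xianfeng was left out. Named genes below follow a rule described with the processing, and 211 of the 395 genes under that rule were called again with each variety left out in turn. The examples come mainly from these 211, and for the others the largest adjusted p reached without a variety is given. Variety means are always listed in the order Jincheng, Taoye and Xianfeng for CO and Cutter, Delta and Rohde Red for VO, and ± marks the SD over the 3 varieties unless SE is written. In parentheses, a first number without a unit is the log2 difference, VO minus CO, and where a side lies under 0.1 FPKM its size depends on the pseudocount.

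**Figure D1:**
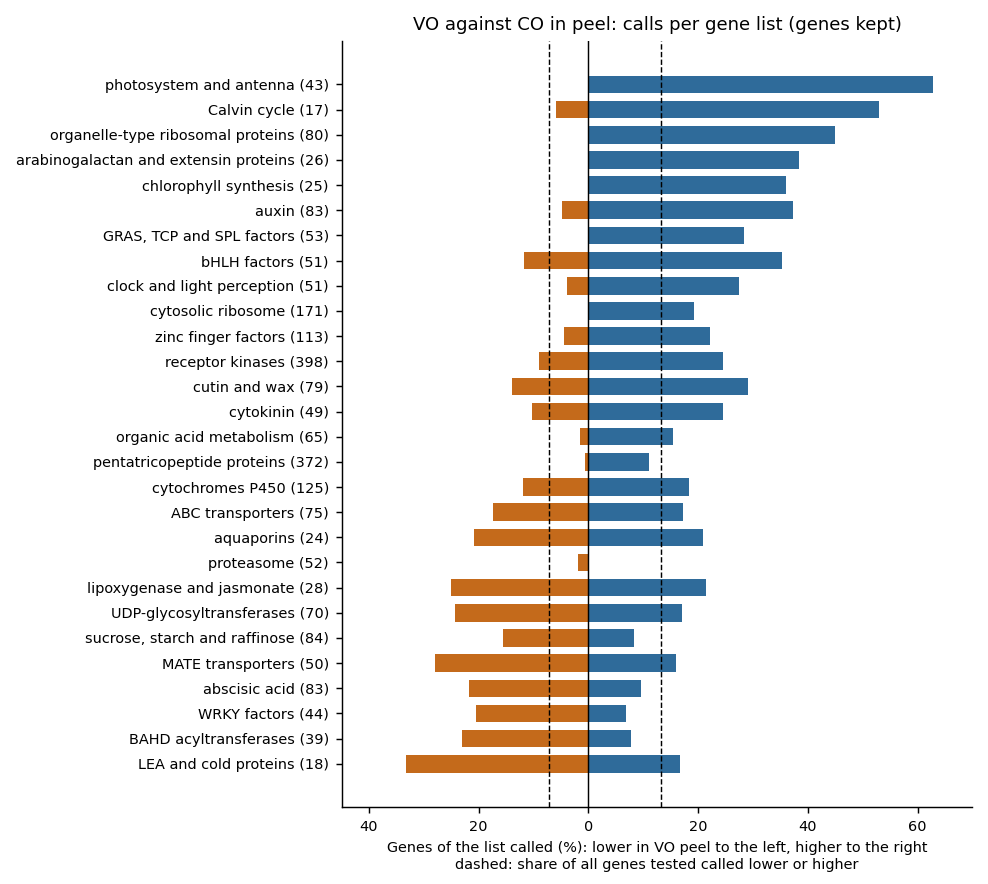
Share of genes called in 28 gene lists, as a percentage of the genes kept in each list (number in parentheses); bars to the right are higher and bars to the left lower in VO peel, and dashed lines mark the shares over all genes tested (13.2% higher and 7.15% lower). The 28 lists were picked out of 79, so the plot does not show how often lists depart from the dashed lines. Large lists left out include disease resistance, F-box and heat shock proteins, with 15.7%, 14.4% and 11.1% called. The photosystem list reached 62.8% higher with none lower. LEA and cold proteins reached 33.3% lower and 16.7% higher of only 18 genes, and 2 to 5 of them were called lower with a variety left out.

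Genes of the photosynthetic apparatus were mostly higher in VO peel. Of 43 kept genes for photosystem and antenna proteins, 27 were higher in VO peel and 0 were lower, with a median log2 difference of 1.53 against 0.05 over all genes. With each variety left out in turn, 14 (without Rohde Red Valencia) to 29 of them were called higher. Plastocyanin (Cs3g26730), the copper protein that passes electrons to photosystem I, was at 5.99, 7.38 and 3.41 FPKM in CO and 40.4, 28 and 38.9 FPKM in VO (log2 difference 2.73 ± 0.30 (SE), limma adjusted p = 0.00331). Photosystem I reaction center subunit II (Cs5g31180), which docks ferredoxin, was at 0.394, 0.49 and 0.078 FPKM in CO and 4.53, 2.56 and 3.51 FPKM in VO (log2 difference 3.26 ± 0.47 (SE), limma adjusted p = 0.00735). In both genes Xianfeng was the lowest variety and Delta Valencia the lowest of the VOs, and no library of either side reached the other. The call of chlorophyll a-b binding protein 3C (Cs2g03780), the most abundant called antenna gene at 35.4 ± 19.5 FPKM in CO and 105 ± 35.5 FPKM in VO, was weaker: its log2 difference was 1.67, limma adjusted p = 0.0473, and the adjusted p reached 0.134 with a variety left out. By family, taken after the list results were seen, 7 of 8 photosystem I subunits, 5 of 8 photosystem II subunits, 9 of 14 chlorophyll a-b binding proteins and 8 of 13 subunits of the photosynthetic NDH complex were higher and 0 were lower.

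Called genes of carbon fixation and chlorophyll synthesis were nearly all higher. In the Calvin cycle list 9 of 17 genes were higher and 1 was lower. Sedoheptulose-1,7-bisphosphatase (Cs7g31640), which regenerates the carbon dioxide acceptor, was at 0.613, 0.495 and 0.326 FPKM in CO and 6.33, 4.6 and 7.7 FPKM in VO (log2 difference 3.47 ± 0.25 (SE), limma adjusted p = 0.00134). Rubisco activase (Cs7g31800) was at 33.4, 37.1 and 28.1 FPKM in CO and 94.4, 64.4 and 92.4 FPKM in VO (log2 difference 1.34 ± 0.17 (SE), limma adjusted p = 0.00539). Plastid fructose-bisphosphate aldolase 1 (Cs8g08710), a gene picked after its values were seen, was at 3.37, 3.18 and 2.05 FPKM in CO and 30.6, 19.3 and 33.3 FPKM in VO (log2 difference 3.23 ± 0.26 (SE), limma adjusted p = 0.00171). The single Calvin cycle gene that was lower was a transketolase-1 (Cs7g24920), at 1.77 ± 0.31 FPKM in CO and 0.35 ± 0.311 FPKM in VO (-2.29, limma adjusted p = 0.0209, and up to 0.0639 with a variety left out). Of 25 chlorophyll synthesis genes 9 were higher and 0 were lower. Geranylgeranyl diphosphate reductase (Cs5g10740), which makes the phytyl tail, was at 9.2, 7.44 and 6.45 FPKM in CO and 21, 17.2 and 20.7 FPKM in VO (log2 difference 1.35 ± 0.14 (SE), limma adjusted p = 0.00308). Magnesium protoporphyrin IX methyltransferase (Cs7g19710) was at 2.54 ± 0.405 FPKM in CO and 5.51 ± 0.917 FPKM in VO (1.1, limma adjusted p = 0.00807). Magnesium-chelatase subunit ChlI (Cs2g05100), part of the enzyme that inserts magnesium, was at 22.7 ± 2.27 FPKM in CO and 35.2 ± 3.78 FPKM in VO (0.63, limma adjusted p = 0.0108). For these 2 lists 7 (without Xianfeng) to 10 and 6 (without Xianfeng) to 9 genes, respectively, were called higher with a variety left out.

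Some genes for organelle ribosomes and for redox proteins were also higher. Of 80 genes matched to 30S or 50S ribosomal proteins, the bacterial type found in plastids and mitochondria, 36 were higher and 0 were lower, 44 were not called and the median difference was 0.27 on the log2 scale. From 18 (without Xianfeng) to 35 of them were called higher with a variety left out. The 30S ribosomal protein 3-1 gene (Cs7g13090) was at 3.83, 3.57 and 3.41 FPKM in CO and 8.37, 8.81 and 7.81 FPKM in VO (log2 difference 1.18 ± 0.08 (SE), limma adjusted p = 0.00104). The 50S ribosomal protein 5 gene (Cs6g16430) was at 1.63 ± 0.181 FPKM in CO and 3.7 ± 0.308 FPKM in VO (1.15, limma adjusted p = 0.00306). Of 62 thioredoxin, peroxiredoxin and ferredoxin genes, 15 were higher and 4 lower, with a median log2 difference of 0.08 and a summed level of 2503 FPKM in CO and 2462 FPKM in VO. Ferredoxin-2 (Cs3g03670), the electron acceptor of photosystem I, was at 27.9, 35.4 and 22.3 FPKM in CO and 128, 92.3 and 117 FPKM in VO (log2 difference 1.99 ± 0.19 (SE), limma adjusted p = 0.00233). Thioredoxin M-type (Cs3g20630), which activates Calvin cycle enzymes in the light, stood at 0.44 ± 0.0662 FPKM in CO and 2.18 ± 0.559 FPKM in VO (2.18, limma adjusted p = 0.00306). The drought-related thioredoxin-like CDSP32 (Cs3g26690) stood at 1.89 ± 0.511 FPKM in CO and 8.11 ± 2.03 FPKM in VO (2.07, limma adjusted p = 0.00494).

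**Figure D2:**
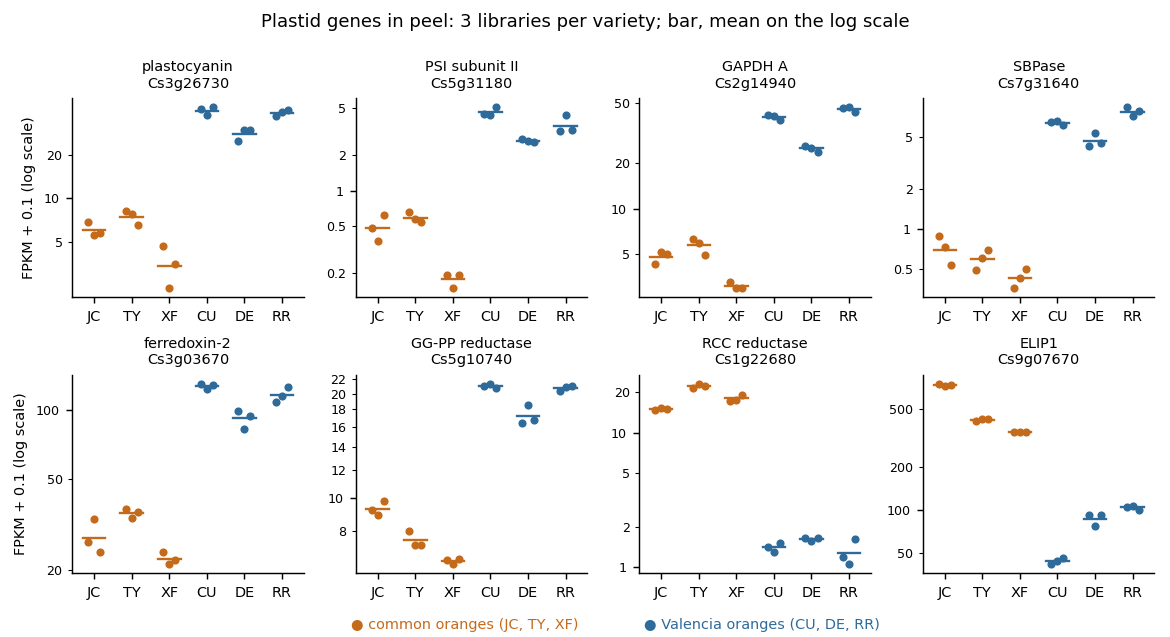
FPKM + 0.1 on a log axis for 8 plastid genes in peel, with 1 point per library, 3 libraries per variety and a bar at the variety mean on the log scale; orange marks the CO varieties Jincheng (JC), Taoye (TY) and Xianfeng (XF), and blue the VO varieties Cutter (CU), Delta (DE) and Rohde Red (RR). The first 6 genes were higher in every VO library than in any CO library, and red chlorophyll catabolite (RCC) reductase Cs1g22680 and early light-induced protein 1 (ELIP1) Cs9g07670 were lower in every VO library.

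Chlorophyll breakdown genes were called in both directions, while both early light-induced proteins were lower. Chlorophyll(ide) b reductase NYC1 (Cs4g15890), which starts chlorophyll b breakdown, was at 75, 64.2 and 89.9 FPKM in CO and 49.9, 38.9 and 46.4 FPKM in VO (log2 difference -0.75 ± 0.15 (SE), limma adjusted p = 0.0168; up to 0.0522 with a variety left out). Of the 12 chlorophyll breakdown genes kept, 1 was higher and 2 were lower, so that 25% were called against 20.4% over all genes. A pair of neighbouring genes for red chlorophyll catabolite reductase, which cleaves a late breakdown product, differed in opposite directions: Cs1g22680 was at 15, 22.3 and 18 FPKM in CO and 1.31, 1.52 and 1.19 FPKM in VO (-3.68, limma adjusted p = 0.000397) while Cs1g22670 was at 16.4, 18.9 and 17.3 FPKM in CO and 21.2, 26.3 and 23.5 FPKM in VO (0.43, limma adjusted p = 0.0256, and up to 0.0864 with a variety left out). Because reads of such near copies may be shared between them, the split of the values is uncertain. Both early light-induced proteins, thylakoid proteins that bind freed pigments under light stress, were lower: Cs9g07670 was at 741, 422 and 349.7 FPKM in CO and 44.3, 87.3 and 104 FPKM in VO (log2 difference -2.69 ± 0.39 (SE), limma adjusted p = 0.00753) and its neighbour Cs9g07680 at 699.8, 623 and 589 FPKM in CO and 293, 394 and 341 FPKM in VO (-0.90, limma adjusted p = 0.0114). In the carotenoid list of 31 genes 3 were higher and 6 lower. The lower ones included a zeta-carotene desaturase (Cs3g11040), an enzyme on the way to lycopene, at 1.43, 2.27 and 1.72 FPKM in CO and 0.0422, 0.0818 and 0.0748 FPKM in VO (-3.52, limma adjusted p = 0.00108). Carotenoid cleavage dioxygenase 4 (Cs8g14150) was at 71.5, 73.5 and 103 FPKM in CO and 34.7, 42.7 and 44.3 FPKM in VO (-1.01, limma adjusted p = 0.0101).

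Called auxin genes were mostly higher in VO peel. Of 83 auxin genes kept, 31 were higher, 4 were lower and 48 were not called, and the median log2 difference was 0.35. When a variety was left out, 14 (without Xianfeng) to 27 auxin genes were called higher. Among the Aux/IAA repressors, which auxin both induces and destroys, 8 of 11 were higher and 1 was lower, and of the auxin carriers, which move auxin between cells, 6 of 8 were higher; both families were taken out of the list after its result was seen. IAA8 (Cs3g16750) was at 21.7, 24.5 and 22.4 FPKM in CO and 49.2, 39.1 and 46.7 FPKM in VO (log2 difference 0.97 ± 0.10 (SE), limma adjusted p = 0.00292). IAA13 (Cs9g09120) was at 2.15, 2.66 and 1.3 FPKM in CO and 9.83, 8.49 and 12.4 FPKM in VO (log2 difference 2.32 ± 0.27 (SE), limma adjusted p = 0.0038). A neighbouring pair of small auxin-induced genes rose by similar amounts: auxin-induced protein X10A (orange1.1t04220) was at 1.73, 2.6 and 1.08 FPKM in CO and 15.1, 11.9 and 9.8 FPKM in VO (2.80, limma adjusted p = 0.00391). SAUR21 (orange1.1t04221) was at 1.22, 1.72 and 0.905 FPKM in CO and 11, 5.91 and 4.92 FPKM in VO (2.36, limma adjusted p = 0.00753). Auxin response factors, which bind auxin-responsive promoters, divided into 7 higher and 2 lower of 19.

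Gibberellin and cytokinin genes changed in both directions. Gibberellin 20 oxidase 2 (orange1.1t00272), which makes the precursor of active gibberellin, was at 1.58, 1.15 and 1.24 FPKM in CO and 7.14, 10.2 and 5.77 FPKM in VO (log2 difference 2.45 ± 0.23 (SE), limma adjusted p = 0.00205). The DELLA protein GAI1 (Cs2g16940), a repressor of gibberellin responses, was also higher, at 5.85, 5.1 and 4.51 FPKM in CO and 10.6, 10.01 and 13.2 FPKM in VO (1.11, limma adjusted p = 0.00477). Small gibberellin-regulated peptides went both ways: gibberellin-regulated protein 14 (Cs6g20220) was at 3.41 ± 0.931 FPKM in CO and 12.5 ± 3.63 FPKM in VO (1.84, limma adjusted p = 0.00785) and gibberellin-regulated protein 4 (Cs6g21260) at 2.2 ± 1.03 FPKM in CO and 0.116 ± 0.0857 FPKM in VO (-3.38, limma adjusted p = 0.00753). Snakin-2 (Cs7g08100) was at 5.98 ± 4.07 FPKM in CO and 0.179 ± 0.161 FPKM in VO (-4.54, limma adjusted p = 0.00387). Over the 30 gibberellin genes 6 were higher and 5 lower. Of 49 cytokinin genes 12 were higher and 5 lower, and 5 (without Xianfeng) to 8 were called higher with a variety left out. The response regulators ARR5 (Cs5g04810), a type that cytokinin induces and that damps its signal in Arabidopsis, and ARR11 (Cs7g10020), which activates cytokinin targets, were at 1.22, 0.715 and 0.824 FPKM in CO and 3.74, 5.08 and 4 FPKM in VO (2.15, limma adjusted p = 0.00292) and at 11.4, 10.5 and 9.11 FPKM in CO and 22.4, 18.3 and 22.4 FPKM in VO (1.02, limma adjusted p = 0.0037), respectively.

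Called ABA genes were more often lower than higher, and most of the lower ones were protein phosphatases 2C. Of 83 genes 8 were higher and 18 lower, and 9 (without Xianfeng) to 15 were called lower with a variety left out. Most of the list consists of protein phosphatases 2C, some of which repress ABA signalling: 4 of 60 were higher and 15 lower. The ABA 8'-hydroxylases and the ABA receptors did not share this lean. Of 7 genes for ABA 8'-hydroxylase 2 were higher and 0 lower, and of 4 ABA receptors 1 was higher and 0 lower. Both kept genes for 9-cis-epoxycarotenoid dioxygenase, the rate-limiting step of ABA synthesis, were lower (Cs2g03270, log2 difference -3.07, limma adjusted p = 0.00174; Cs5g14370, log2 difference -3.25, limma adjusted p = 0.00624). Among transcription factors, NAC domain-containing protein 72 (Cs1g06760) was at 235, 425 and 279 FPKM in CO and 106, 60.6 and 55.7 FPKM in VO (log2 difference -2.09 ± 0.31 (SE), limma adjusted p = 0.0078). The homeobox-leucine zipper ATHB-7 (orange1.1t02547) was at 14, 36.4 and 14.5 FPKM in CO and 5.25, 5.4 and 3.81 FPKM in VO (-2.01, limma adjusted p = 0.015; up to 0.0544 with a variety left out). Of 18 late embryogenesis abundant (LEA) and cold proteins, which protect cells from water loss, 3 were higher and 6 lower, while their summed level was 3035 FPKM in CO and 3592 FPKM in VO. When a variety was left out, 2 (without Xianfeng) to 5 were called lower. The lower ones included a dehydrin (Cs8g07520) at 3.19, 3.33 and 3.45 FPKM in CO and 0.504, 1.03 and 0.409 FPKM in VO (-2.32, limma adjusted p = 0.00524). Desiccation-related protein PCC13-62 (Cs5g32870) was at 18.2, 18.6 and 21.5 FPKM in CO and 6.79, 9.97 and 10.4 FPKM in VO (-1.11, limma adjusted p = 0.00851).

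Ethylene and jasmonate genes changed in both directions. Of 36 ethylene genes 5 were higher (13.9%) and 6 lower (16.7%), against 13.2% and 7.15% over all genes. With a variety left out, 1 (without Xianfeng) to 5 were called higher and 5 to 6 lower. Among the lower ones, 1-aminocyclopropane-1-carboxylate (ACC) synthase 8 (Cs3g16400), of the enzyme family that limits ethylene synthesis, was at 2.09, 4.3 and 5.64 FPKM in CO and 0.241, 0.346 and 0.27 FPKM in VO (log2 difference -3.36 ± 0.36 (SE), limma adjusted p = 0.00309). ACC synthase 1 (orange1.1t00414) was at 4.3, 4.54 and 4.1 FPKM in CO and 2.55, 2.41 and 2.34 FPKM in VO (-0.80, limma adjusted p = 0.00294). The receptor ethylene response sensor 1 (Cs5g33560), which represses the response when ethylene is absent, was higher, at 27.5, 32.3 and 32.4 FPKM in CO and 40.3, 41.2 and 40.7 FPKM in VO (0.41, limma adjusted p = 0.0164; up to 0.0561 with a variety left out). In the jasmonate list 6 of 28 genes were higher (21.4%) and 7 lower (25%). With a variety left out, 1 to 4 jasmonate genes were called higher and 3 to 9 lower, both fewest without Xianfeng. Of 6 genes for allene oxide synthase, allene oxide cyclase and oxophytodienoate reductase, which act one after another in jasmonate synthesis, 4 were lower and 0 higher. Allene oxide cyclase (Cs6g18900) was at 140.2, 123 and 129 FPKM in CO and 75.3, 81.9 and 66.5 FPKM in VO (-0.81, limma adjusted p = 0.00471). A pair of genes for linoleate 13S-lipoxygenase 2-1, which oxidizes the starting fatty acid, moved apart: orange1.1t04376 was at 149, 216 and 191 FPKM in CO and 38.7, 48.6 and 30.7 FPKM in VO (-2.24, limma adjusted p = 0.00186) and orange1.1t03773 at 3.85, 7.67 and 4.79 FPKM in CO and 16.8, 14.1 and 12.3 FPKM in VO (1.44, limma adjusted p = 0.0125; up to 0.0511 with a variety left out).

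Called genes of the clock and of light perception were mostly higher in VO peel. Of 51 genes of the clock and of light perception 14 were higher and 2 lower (5 (without Xianfeng) to 15 higher with a variety left out), and among the 20 B-box and CONSTANS-like proteins, zinc finger regulators of light and day-length responses, 10 were higher and 0 lower. CONSTANS-LIKE 16 (Cs7g26690) was at 0.146, 0.203 and 0.145 FPKM in CO and 1.99, 1.14 and 1.12 FPKM in VO (log2 difference 2.47 ± 0.27 (SE), limma adjusted p = 0.00309). B-box zinc finger protein 32 (Cs2g07080) was at 0.66, 0.801 and 0.477 FPKM in CO and 2.95, 2.36 and 2.56 FPKM in VO (1.94, limma adjusted p = 0.00225). Phytochrome C (Cs2g19400), a red-light receptor, was lower, at 62.6, 66.7 and 61.1 FPKM in CO and 51.4, 48.6 and 50.9 FPKM in VO (-0.33, limma adjusted p = 0.015; up to 0.0511 with a variety left out). HEADING DATE 3A (Cs6g05140), the mobile flowering signal of rice and a gene chosen after its values were seen, was at 51, 70.7 and 41.3 FPKM in CO and 212, 127 and 217 FPKM in VO (log2 difference 1.76 ± 0.27 (SE), limma adjusted p = 0.00839). The repressor RAV2 (Cs7g12870), also chosen after its values were seen, was at 11, 10.3 and 7.98 FPKM in CO and 26.3, 29.6 and 52.8 FPKM in VO (1.83, limma adjusted p = 0.0078).

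Called genes of several growth-related transcription factor families were mostly higher. All 15 called genes of the 53 GRAS, TCP and SPL factors, families that regulate organ growth and phase change, were higher in VO. Scarecrow-like protein 4 (Cs1g24030) was at 4.17, 3.09 and 2.56 FPKM in CO and 7.28, 8.82 and 6.66 FPKM in VO (1.22, limma adjusted p = 0.00987). TCP8 (orange1.1t03896) was at 19.9, 18.5 and 18.1 FPKM in CO and 25.3, 30.4 and 31.3 FPKM in VO (0.62, limma adjusted p = 0.00844). Of 47 homeobox factors 14 were higher and 5 lower. HAT3 (Cs1g03390), which acts in the shade response and leaf polarity of Arabidopsis, was at 0.929, 0.84 and 0.634 FPKM in CO and 2.76, 3.17 and 3.69 FPKM in VO (log2 difference 1.87 ± 0.17 (SE), limma adjusted p = 0.00214). In the bHLH family 18 of 51 were higher and 6 lower, but the gene with the largest change fell: bHLH25 (Cs1g21000) was at 7.41, 20.1 and 12.1 FPKM in CO and 0.879, 0.124 and 0.115 FPKM in VO (log2 difference -5.11 ± 0.65 (SE), limma adjusted p = 0.00512). With a variety left out, 7 (without Xianfeng) to 12 GRAS, TCP and SPL genes, 6 (without Delta Valencia) to 13 homeobox genes and 8 (without Rohde Red Valencia) to 13 bHLH genes were called higher.

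Called WRKY and heat stress factors were more often lower than higher. Among WRKY factors, which regulate defence and senescence, 9 of 44 were lower and 3 higher (3 (without Xianfeng) to 9 lower with a variety left out). WRKY47 (orange1.1t01779) was at 42.9, 42.3 and 43.9 FPKM in CO and 26.6, 31.4 and 26.5 FPKM in VO (-0.61, limma adjusted p = 0.00559). WRKY42 (Cs2g02790) was at 34.6, 46 and 38.2 FPKM in CO and 22.8, 20.7 and 20.4 FPKM in VO (-0.88, limma adjusted p = 0.00509). In the MYB family 8 were higher and 10 lower of 69, but 5 and 4 without Xianfeng. MYB63 (Cs4g12760), a direct activator of lignin genes in Arabidopsis, was at 2.9, 4.73 and 3.98 FPKM in CO and 0.368, 0.586 and 0.228 FPKM in VO (log2 difference -3.19 ± 0.31 (SE), limma adjusted p = 0.00233). A Myb-related factor (Cs6g21210) was at 73.7, 61.8 and 80.8 FPKM in CO and 36.4, 37.6 and 25 FPKM in VO (-1.14, limma adjusted p = 0.009). MYB16 (Cs6g21530), which regulates cuticle and epidermal cell shape in Arabidopsis, was higher, at 0.376, 0.414 and 0.465 FPKM in CO and 1.85, 2.38 and 1.64 FPKM in VO (1.99, limma adjusted p = 0.00186). Of 13 heat stress factors 3 were lower and 1 higher, with B-3 (orange1.1t02319) at 5.78, 7.01 and 7.03 FPKM in CO and 1.99, 2.35 and 1.62 FPKM in VO (-1.70, limma adjusted p = 0.00186). A-2 (Cs4g14590) was at 4.55 ± 1.28 FPKM in CO and 1.42 ± 0.263 FPKM in VO (-1.59, limma adjusted p = 0.00809). Ethylene-responsive factors divided into 9 higher and 9 lower of 70 (12.9% each, against 13.2% and 7.15% over all genes). ERF061 (Cs5g02340) was at 116, 111 and 129 FPKM in CO and 51, 40.8 and 32.6 FPKM in VO (log2 difference -1.53 ± 0.16 (SE), limma adjusted p = 0.003). NAC90 (Cs8g14700), a negative regulator of senescence in Arabidopsis, was higher, at 1.67, 2.12 and 0.957 FPKM in CO and 10.5, 9.45 and 15.5 FPKM in VO (2.89, limma adjusted p = 0.00312).

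**Figure D3:**
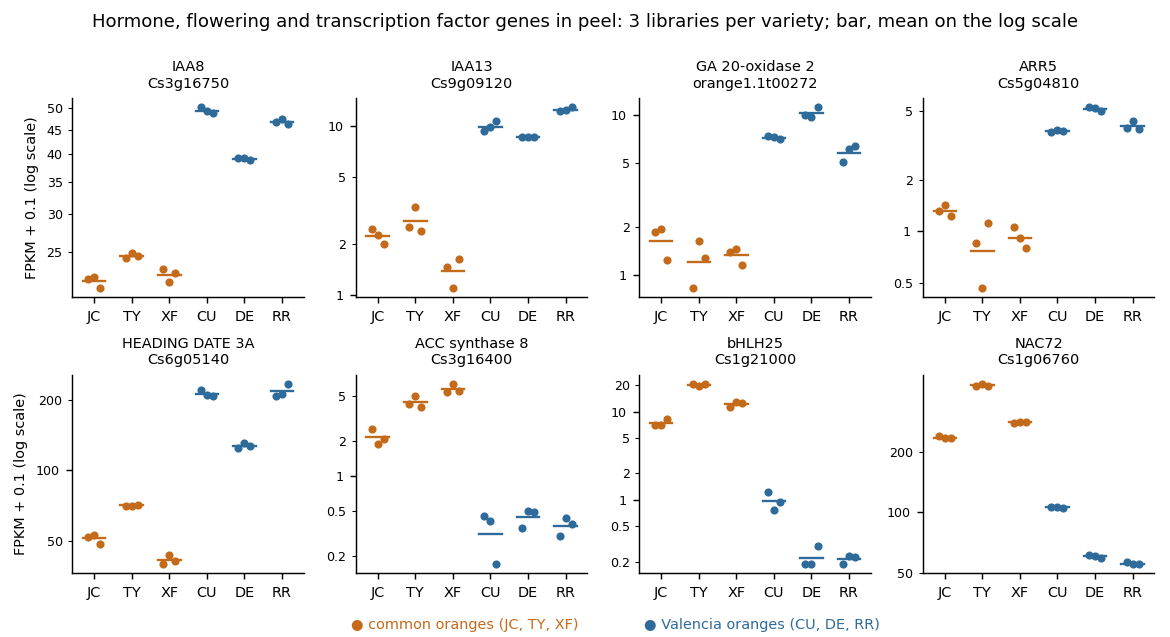
FPKM + 0.1 on a log axis for 8 hormone, flowering and transcription factor genes in peel, with 1 point per library and a bar at the variety mean; orange marks CO and blue VO varieties. IAA8, IAA13, gibberellin (GA) 20-oxidase 2, ARR5 and HEADING DATE 3A lie higher in VO, while ACC synthase 8, bHLH25 and NAC72 lie lower.

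Several families of specialised metabolism were lower more often than higher in VO peel. Among 70 UDP-glycosyltransferases, which attach sugars to small molecules, 17 were lower and 12 higher. UGT76B1 (Cs9g16640), which conjugates defence-related acids in Arabidopsis, was at 269.9, 203 and 317 FPKM in CO and 64.5, 94.7 and 39.4 FPKM in VO (log2 difference -2.06 ± 0.33 (SE), limma adjusted p = 0.00943). UGT86A1 (orange1.1t02409) was at 94.4, 84.8 and 106 FPKM in CO and 22.9, 32.3 and 15.7 FPKM in VO (log2 difference -2.06 ± 0.25 (SE), limma adjusted p = 0.00446). Limonoid UDP-glucosyltransferase (Cs8g04920), which turns bitter limonoids into tasteless glucosides in citrus, was at 226 ± 23.2 FPKM in CO and 130.5 ± 18.9 FPKM in VO (-0.80, limma adjusted p = 0.0115). Acyltransferases of the BAHD family, which add acyl groups to alcohols and amines, gave 9 lower and 3 higher of 39. The most abundant was BIA1 (Cs6g12880), named for brassinosteroid inactivation in Arabidopsis, at 455, 627 and 615 FPKM in CO and 111, 107 and 78.6 FPKM in VO (log2 difference -2.52 ± 0.19 (SE), limma adjusted p = 0.00137). Its neighbour, matched to vinorine synthase (Cs6g12870), was at 32.7, 48.1 and 59 FPKM in CO and 10.4, 7.12 and 4.46 FPKM in VO (-2.70, limma adjusted p = 0.00484). With a variety left out, 9 (without Xianfeng) to 14 glycosyltransferases and 6 (without Xianfeng) to 9 BAHD genes were called lower.

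Cytochromes P450 moved both ways, while the called geraniol 8-hydroxylases were all lower. Of 125 P450 genes 23 were higher and 15 lower. Of 18 genes matched to geraniol 8-hydroxylase, a monoterpene oxidase of periwinkle, 8 were lower and 0 higher, and their summed variety mean was 632 FPKM in CO and 309.6 FPKM in VO. This subfamily was set apart after the values were seen, as were its examples: orange1.1t04139 was at 58.7, 54.1 and 55.4 FPKM in CO and 12.9, 11.2 and 11.8 FPKM in VO (log2 difference -2.22 ± 0.07 (SE), limma adjusted p = 0.000137) and Cs8g09780 at 34.8, 32.4 and 36.2 FPKM in CO and 4.1, 2.13 and 1.82 FPKM in VO (-3.73, limma adjusted p = 0.00145). P450 82A3 (Cs5g27570), the most abundant of the family to change, was at 311, 352 and 411 FPKM in CO and 179, 146 and 101 FPKM in VO (-1.36, limma adjusted p = 0.0101). P450 87A3 (Cs2g24600) was higher, at 0.249, 0.192 and 0.0466 FPKM in CO and 1.64, 3.92 and 3.3 FPKM in VO (3.56, limma adjusted p = 0.00474). In the terpene synthase list, 3 of 30 genes were higher and 5 lower. Nerolidol synthase 2 (Cs2g07250) was listed at or near 0 in every CO variety (0, 0.0196 and 0.00677 FPKM) and at 0.793, 1.57 and 1.04 FPKM in VO. Alpha-copaene synthase (orange1.1t05635) was at 2.2, 1.67 and 2.12 FPKM in CO and 0.444, 0.196 and 0.208 FPKM in VO (-2.53, limma adjusted p = 0.00574), and a germacrene D synthase (Cs5g12900) fell by a log2 difference of -2.71, limma adjusted p = 0.00171. None of the 9 kept genes for limonene synthase, which makes the main oil of orange peel, was called by limma, and their summed variety mean was 96.6 FPKM in CO and 92.7 FPKM in VO.

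Of 53 O- and N-methyltransferases 6 were higher (11.3%) and 5 lower (9.43%), shares near the 13.2% and 7.15% over all genes. Among the lower ones, a gene matched to xanthohumol 4'-O-methyltransferase (Cs5g35100) was at 3.6, 3.03 and 3.47 FPKM in CO and 0.0575, 0.126 and 0.215 FPKM in VO (log2 difference -3.99 ± 0.25 (SE), limma adjusted p = 0.000821). Anthranilate N-methyltransferase (Cs5g24950), which acts in acridone synthesis in rue, was at 18.9, 23 and 22.6 FPKM in CO and 11.3, 9.75 and 8.77 FPKM in VO (-1.11, limma adjusted p = 0.003). In the flavonoid list 4 of 31 genes were higher, a share of 12.9% near the 13.2% over all genes, and 0 were lower. The higher ones included 3 genes for flavonoid 3'-monooxygenase, which hydroxylates the B ring: orange1.1t03164 at 49.2, 33.5 and 32.2 FPKM in CO and 77.4, 119 and 81.8 FPKM in VO (1.27, limma adjusted p = 0.0122), its neighbour orange1.1t03165 at 115, 109 and 104 FPKM in CO and 156, 217 and 162 FPKM in VO (0.69, limma adjusted p = 0.0176; up to 0.0688 with a variety left out) and Cs9g14170 at 0.179 ± 0.0716 FPKM in CO and 1.01 ± 0.493 FPKM in VO (1.98, limma adjusted p = 0.0165). Delta Valencia was the highest variety in all 3 genes, and how reads divide between the neighbouring copies is uncertain.

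**Figure D4:**
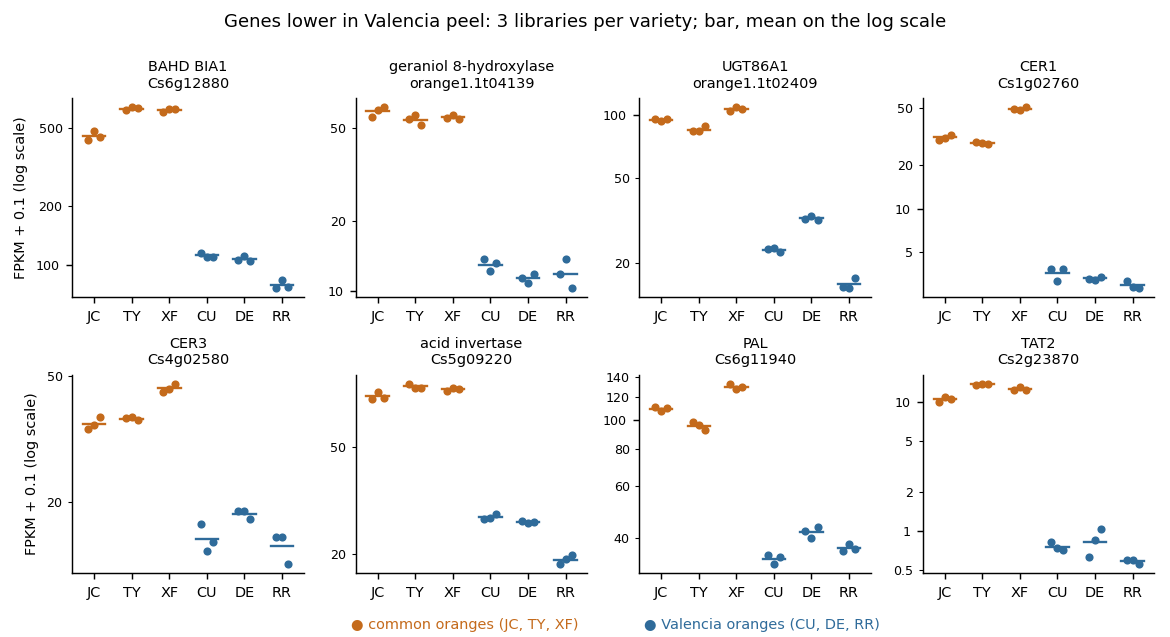
FPKM + 0.1 on a log axis for 8 genes that were lower in VO peel, with 1 point per library and a bar at the variety mean; orange marks CO and blue VO varieties. Every VO library lies below every CO library in each panel, from the BAHD gene BIA1 at 455 FPKM or more in each CO variety mean to aminotransferase TAT2 at under 1 FPKM in each VO variety mean.

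Genes of the cuticle, the wax and cutin layer of the outer peel, changed member by member. Of 79 cutin and wax genes 23 were higher and 11 lower, and all 6 kept ECERIFERUM genes were called, 2 higher and 4 lower. ECERIFERUM 1 (CER1, Cs1g02760) and ECERIFERUM 3 (CER3, Cs4g02580), which together make wax alkanes in Arabidopsis, were at 31.2, 28.6 and 49.3 FPKM in CO and 3.5, 3.19 and 2.85 FPKM in VO (-3.44, limma adjusted p = 0.000707) and at 35.2, 36.6 and 45.8 FPKM in CO and 15.2, 18.2 and 14.4 FPKM in VO (log2 difference -1.29 ± 0.13 (SE), limma adjusted p = 0.00264). The fatty acid elongase 3-ketoacyl-CoA synthase 2 (Cs6g02360) was at 14, 12.8 and 23.4 FPKM in CO and 1, 1.1 and 0.0983 FPKM in VO (log2 difference -4.68 ± 0.70 (SE), limma adjusted p = 0.00785), with Rohde Red Valencia near 0.1 FPKM. Among the higher genes, HOTHEAD (Cs5g10170), an oxidoreductase needed for cutin and organ separation in Arabidopsis, was at 0.0788, 0.106 and 0.262 FPKM in CO and 1.23, 1.11 and 1.41 FPKM in VO (log2 difference 2.51 ± 0.31 (SE), limma adjusted p = 0.00462). The acyltransferase DCR (Cs9g17800), needed for cutin in Arabidopsis, was at 0.689, 0.742 and 0.56 FPKM in CO and 1.95, 1.57 and 4.01 FPKM in VO (1.76, limma adjusted p = 0.0189; up to 0.0679 with a variety left out). GDSL esterases, a large family that includes cutin synthase, gave 10 higher and 3 lower of 30. Leaving out a variety gave 10 (without Rohde Red Valencia) to 20 genes of the whole list higher and 7 (without Xianfeng) to 11 lower.

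Other lipid genes were called in both directions. Of 48 genes for fatty acid synthesis and desaturation, 7 were higher and 7 lower, so that 29.2% were called. Of 16 lipid transfer proteins 3 were higher and 3 lower (37.5%), against 20.4% called over all genes. With a variety left out, 4 to 7 and 0 to 4 genes of these lists, respectively, were called lower, and 5 to 7 and 2 to 4 higher. Stearoyl-[acyl-carrier-protein] 9-desaturase (Cs3g15540), which makes oleic acid in the plastid, was at 224, 200.5 and 255 FPKM in CO and 131, 128 and 103 FPKM in VO (-0.91, limma adjusted p = 0.00767). Desaturase 5 (Cs7g16060) was higher, at 4.22, 4.42 and 4.25 FPKM in CO and 9.06, 9.54 and 9.19 FPKM in VO (1.09, limma adjusted p = 0.000707). A 3-oxoacyl-[acyl-carrier-protein] reductase FabG gene (Cs6g16980), a step of fatty acid synthesis, was at 21.9, 15 and 28 FPKM in CO and 4.72, 3.96 and 5.04 FPKM in VO (-2.19, limma adjusted p = 0.00282). A lipase gene (Cs3g23440) fell from 10.1, 17.9 and 10.7 FPKM in CO to 1.06, 0.477 and 0.323 FPKM in VO (-4.26, limma adjusted p = 0.00214). Among lipid transfer proteins, a GPI-anchored member (orange1.1t01623) was at 26.7, 2.22 and 7.59 FPKM in CO and 78.7, 124 and 92.9 FPKM in VO (3.66, limma adjusted p = 0.0261; up to 0.083 with a variety left out). A secreted member (Cs6g09960) was at 112, 407 and 186 FPKM in CO and 5.55, 51.5 and 1.68 FPKM in VO (-4.68, limma adjusted p = 0.0378; up to 0.104), both with wide spread between varieties.

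Among cell wall genes outside the pectin and lignin lists of the study, several structural protein genes were higher. Of 26 arabinogalactan, extensin and proline-rich proteins, structural glycoproteins of the wall, 10 were higher and 0 lower, and 7 (without Rohde Red Valencia) to 11 were called higher with a variety left out. Proline-rich protein 2 (Cs8g09070) was at 0.107, 0.0729 and 0.313 FPKM in CO and 5.61, 3.41 and 4.86 FPKM in VO (log2 difference 4.27 ± 0.37 (SE), limma adjusted p = 0.0018), and its neighbour Cs8g09090 at 13.4, 13.5 and 17.8 FPKM in CO and 45, 56.4 and 45.7 FPKM in VO (1.72, limma adjusted p = 0.00171). The 36.4 kDa proline-rich protein (Cs6g11570) was at 60.8, 42.8 and 67.1 FPKM in CO and 117, 207 and 182 FPKM in VO (1.55, limma adjusted p = 0.0103). Expansins, which loosen walls, gave 4 higher and 1 lower of 18. Expansin-like B1 (Cs5g07856) was at 0.822, 0.716 and 0.273 FPKM in CO and 8.1, 4.21 and 5.54 FPKM in VO (log2 difference 3.18 ± 0.38 (SE), limma adjusted p = 0.00448). Among EXORDIUM-like proteins, growth-promoting wall proteins, Cs9g14190 was at 6.65, 4.86 and 6.11 FPKM in CO and 18.3, 30.7 and 32 FPKM in VO (2.16, limma adjusted p = 0.00311); it and the germin-like protein Cs5g25680, at 25, 22.1 and 30.7 FPKM in CO and 107, 142 and 94.8 FPKM in VO (2.13, limma adjusted p = 0.00174), were chosen after their values were seen. The higher cellulose synthase genes included subunit 7 of the secondary wall (Cs4g01990) at 0.452 ± 0.344 FPKM in CO and 2.16 ± 0.756 FPKM in VO (2.22, limma adjusted p = 0.0354; up to 0.0957 with a variety left out). Cellulose synthase-like protein G2 (Cs9g08730) was at 40.8, 36 and 35.7 FPKM in CO and 67.7, 73.4 and 59.97 FPKM in VO (0.83, limma adjusted p = 0.00387). Beside these results, the summed FPKM of 28 secondary wall and vessel markers ran from 3.60 to 9.05 in CO peel libraries and from 13 to 21.5 in VO peel libraries, and the part of the vascular share in the wall genes was not tested.

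The lignin and pectin genes that the study lists changed in both directions. Of its 24 kept phenylpropanoid genes, 4 rose and 7 fell in VO peel, so that 45.8% were called against 20.4% over all genes. The study named these genes from its RNA-seq data, so their count is not independent evidence of a direction. Phenylalanine ammonia-lyase (Cs6g11940), the entry enzyme of the pathway, was at 109, 95.6 and 130.1 FPKM in CO and 33.8, 41.8 and 36.8 FPKM in VO (log2 difference -1.57 ± 0.13 (SE), limma adjusted p = 0.00174). Cinnamoyl-CoA reductase 1 (orange1.1t02754), which commits precursors to lignin, was at 45, 46.2 and 50.4 FPKM in CO and 24.7, 26.6 and 17.8 FPKM in VO (-1.05, limma adjusted p = 0.00732). A caffeoyl-CoA O-methyltransferase (Cs1g12670) was higher, at 1.62, 2.55 and 1.93 FPKM in CO and 5.68, 8.56 and 4.86 FPKM in VO (1.60, limma adjusted p = 0.00887). Of 28 kept polygalacturonase and pectin methylesterase genes, families that the study took from the genome, 5 were higher (17.9%) and 2 lower (7.14%). The shares over all genes were 13.2% and 7.15%. With a variety left out, 2 to 3 of the 28 were called higher and 2 to 4 lower. Pectinesterase 2 (Cs9g14450) was at 0.0622, 0.11 and 0.0371 FPKM in CO and 2.4, 0.713 and 3.1 FPKM in VO (3.51, limma adjusted p = 0.00785). Pectinesterase PPME1 (Cs7g19180) was at 3.2, 3.1 and 3.96 FPKM in CO and 0.245, 0.752 and 0.341 FPKM in VO (-2.86, limma adjusted p = 0.00541). Outside those lists, 3 neighbouring genes for pectin acetylesterase 8, which removes acetyl groups from pectin, diverged: Cs3g10410 was at 177 ± 18.1 FPKM in CO and 276 ± 30.5 FPKM in VO (0.64, limma adjusted p = 0.0167; up to 0.0544 with a variety left out), Cs3g10420 at 1.41 ± 0.419 FPKM in CO and 5.07 ± 1.64 FPKM in VO (1.77, limma adjusted p = 0.0106) and Cs3g10430 at 6.77 ± 2.57 FPKM in CO and 2.15 ± 0.814 FPKM in VO (-1.60, limma adjusted p = 0.0309; up to 0.102). The division of reads among these copies is uncertain.

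Membrane transporters changed in both directions. Sulfate transporter 3.1 (Cs5g30850) was at 85.8, 36.1 and 79.2 FPKM in CO and 10.1, 8.05 and 7.81 FPKM in VO (log2 difference -2.85 ± 0.33 (SE), limma adjusted p = 0.00374). Potassium transporter 5 (Cs5g32740), a high-affinity uptake carrier, was at 2.3, 2.06 and 2.53 FPKM in CO and 0.133, 0.157 and 0.119 FPKM in VO (-3.37, limma adjusted p = 0.000569). Zinc transporter 10 (Cs2g10720) was at 2.69, 9.28 and 5.27 FPKM in CO and 0.812, 0.471 and 0.413 FPKM in VO (-3.06, limma adjusted p = 0.00785). The plastid iron transporter Fe(2+) transport protein 3 (Cs4g18450), chosen after its values were seen, was at 70.7, 66.7 and 101 FPKM in CO and 25.3, 21.7 and 25.2 FPKM in VO (-1.70, limma adjusted p = 0.00233). Of 50 MATE carriers (DETOXIFICATION proteins), which export metabolites in exchange for protons, 8 were higher and 14 lower, with 5 (without Xianfeng) to 14 lower when a variety was left out. DETOXIFICATION 25 (orange1.1t04866) was at 51.4, 46.8 and 51.9 FPKM in CO and 28.9, 27.6 and 19 FPKM in VO (-1.01, limma adjusted p = 0.00964). ABC transporters gave 13 higher and 13 lower of 75. ABCG11 (orange1.1t01993), which exports cuticular lipids in Arabidopsis, was at 122, 160.1 and 145 FPKM in CO and 70.3, 55.4 and 42.9 FPKM in VO (log2 difference -1.36 ± 0.19 (SE), limma adjusted p = 0.00682). Pleiotropic drug resistance protein 1 (Cs1g13620), chosen after its values were seen, was at 15, 26.7 and 34.4 FPKM in CO and 1.94, 2.53 and 0.961 FPKM in VO (-3.76, limma adjusted p = 0.00331). A pair of neighbouring ABCG34 genes, which may share reads, moved apart, with Cs6g15280 at 54.5, 52.3 and 59.9 FPKM in CO and 12.9, 15.8 and 13.7 FPKM in VO (-1.97, limma adjusted p = 0.000501) and Cs6g15300 at 147 ± 13.7 FPKM in CO and 255 ± 39.2 FPKM in VO (0.79, limma adjusted p = 0.0124; up to 0.0531 with a variety left out).

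Carriers of water, sugar and nitrate showed family members on both sides. Of 24 aquaporins 5 were higher and 5 lower. PIP2-6 (Cs8g08820), a plasma membrane water channel, was at 2.63, 2.48 and 3.21 FPKM in CO and 11.2, 11.2 and 11.1 FPKM in VO (log2 difference 1.98 ± 0.11 (SE), limma adjusted p = 0.000622). The tonoplast channel TIP3-1 (Cs5g17210), a seed type in other plants, was at 1.35, 1.62 and 2.79 FPKM in CO and 0.528, 0.512 and 0.332 FPKM in VO (-1.82, limma adjusted p = 0.00903). A pair of PIP1-2 genes differed in direction: Cs5g03460 was at 89.4, 72.1 and 88.5 FPKM in CO and 151, 163 and 162 FPKM in VO (0.93, limma adjusted p = 0.00332) and Cs6g07970 at 51.8, 34.5 and 43.5 FPKM in CO and 20.03, 25 and 14.1 FPKM in VO (-1.15, limma adjusted p = 0.0186; up to 0.0663 with a variety left out). Sugar transporter ERD6-like 17 (Cs3g12510) was at 1.8, 2.31 and 1.84 FPKM in CO and 6.31, 5.31 and 5.02 FPKM in VO (1.44, limma adjusted p = 0.00219). Among nitrate and peptide carriers of the NRT1/PTR family, a pair matched to NPF1.2 moved apart: Cs4g19640 was at 0.336, 0.883 and 0.41 FPKM in CO and 3.31, 3.18 and 3.02 FPKM in VO (2.46, limma adjusted p = 0.00469) and Cs8g03980 at 3.78, 3.85 and 3.31 FPKM in CO and 1.25, 0.778 and 0.918 FPKM in VO (-1.81, limma adjusted p = 0.00233). WAT1-related proteins, some of which carry auxin out of the vacuole, gave 10 higher and 1 lower of 25, a family counted after the values were seen.

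In primary metabolism, an acid invertase and several raffinose genes were lower. Of 84 sucrose, starch and raffinose genes 7 were higher and 13 lower. Acid beta-fructofuranosidase (Cs5g09220), the vacuolar invertase that splits sucrose, was at 76.9, 83.7 and 81.5 FPKM in CO and 27.4, 26.2 and 19 FPKM in VO (log2 difference -1.75 ± 0.14 (SE), limma adjusted p = 0.0017). Of 11 genes for galactinol and raffinose enzymes 4 were lower and 0 higher. Galactinol synthase 2, which starts raffinose synthesis, was at 3.77, 5.04 and 3.74 FPKM in CO and 0.817, 1.21 and 1.58 FPKM in VO for Cs9g01710 (-1.77, limma adjusted p = 0.00675). A beta-amylase (Cs2g22040), which releases maltose from starch, was higher, at 7.84, 6.02 and 7.88 FPKM in CO and 19.4, 27.7 and 21.8 FPKM in VO (log2 difference 1.65 ± 0.16 (SE), limma adjusted p = 0.00233). Among 65 organic acid genes 10 were higher, a share of 15.4% near the 13.2% over all genes, and 1 was lower (5 (without Jincheng) to 9 higher with a variety left out). NADP-dependent isocitrate dehydrogenase (orange1.1t04187), which uses up isocitrate derived from citrate, was at 95.6, 94.1 and 97.1 FPKM in CO and 137, 144 and 128 FPKM in VO (0.51, limma adjusted p = 0.00683). The lower gene was a phosphoenolpyruvate carboxykinase (Cs3g16700), which draws oxaloacetate towards sugar, at 35.3, 37.1 and 41.5 FPKM in CO and 16.5, 21 and 15.6 FPKM in VO (-1.11, limma adjusted p = 0.00362). Another gene of that name (Cs1g20920) was higher, at 47.4, 23.3 and 36.2 FPKM in CO and 76.6, 79.98 and 97.1 FPKM in VO (1.3, limma adjusted p = 0.0167; up to 0.0597 with a variety left out). In amino acid metabolism 10 of 81 genes were higher and 10 lower (12.3% each, against 13.2% and 7.15% over all genes). Aminotransferase TAT2 (Cs2g23870) was at 10.4, 13.5 and 12.4 FPKM in CO and 0.662, 0.74 and 0.484 FPKM in VO (log2 difference -4.08 ± 0.16 (SE), limma adjusted p = 0.000334).

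Defence genes showed single large changes without a common direction. Of 52 chitinases and pathogenesis-related proteins 7 were higher (13.5%) and 6 lower (11.5%), against 13.2% and 7.15% over all genes. Endochitinase CH25 (Cs8g01840), which cleaves fungal chitin, was at 0.55, 0.316 and 0.299 FPKM in CO and 9.19, 45.9 and 7.17 FPKM in VO (4.99, limma adjusted p = 0.00619; 0.0959 with voom on the recovered fragments). Delta Valencia lay well above the other VOs, and a neighbouring chitinase gene may share reads with it. A thaumatin-like protein (Cs5g10550) was at 36.3, 47.8 and 33.9 FPKM in CO and 7.02, 3.71 and 2.09 FPKM in VO (log2 difference -3.33 ± 0.40 (SE), limma adjusted p = 0.0045). Kunitz trypsin inhibitor 2 (Cs5g16780), which blocks digestive proteases, was at 0.643, 1.28 and 0.204 FPKM in CO and 8.28, 9.02 and 3.93 FPKM in VO (3.40, limma adjusted p = 0.0144). Among 413 disease resistance proteins 34 were higher and 31 lower, shares of 8.23% and 7.51% against 13.2% and 7.15% over all genes. A gene matched to DSC1 (orange1.1t02163) was at 3.63, 4.74 and 3.15 FPKM in CO and 0.216, 0.233 and 0.214 FPKM in VO (-3.65, limma adjusted p = 0.000569). Of the antioxidant and glutathione genes 21 of 123 were higher (17.1%) and 5 lower (4.1%). A glutathione S-transferase (Cs3g26760) was at 2.17, 0.859 and 1.45 FPKM in CO and 5.53, 5.4 and 4.69 FPKM in VO (1.84, limma adjusted p = 0.00946).

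Receptor kinases, which sense signals at the cell surface, were higher in 98 (24.6%) and lower in 36 (9.05%) of 398 cases. Over all genes the shares were 13.2% higher and 7.15% lower. Calls of higher kinases numbered 36 (without Xianfeng) to 81 when a variety was left out. The receptor-like kinase matched to At5g38990 (Cs9g04830) was at 0.346, 0.153 and 0.206 FPKM in CO and 3.09, 4.33 and 4.24 FPKM in VO (log2 difference 3.64 ± 0.27 (SE), limma adjusted p = 0.00137). A G-type lectin receptor kinase (Cs5g08340) was at 6.77, 9.23 and 7.14 FPKM in CO and 1.09, 0.536 and 0.436 FPKM in VO (log2 difference -3.40 ± 0.31 (SE), limma adjusted p = 0.002). Among proteases 23 of 116 were higher (19.8%) and 7 lower (6.03%), with 16 (without Xianfeng) to 22 higher when a variety was left out. Subtilisin-like proteases, secreted enzymes of the wall, contributed SBT1.6 (Cs8g02780) at 64.8, 75.5 and 57.7 FPKM in CO and 125, 145 and 126 FPKM in VO (1.01, limma adjusted p = 0.00395) and SBT1.7 (Cs3g23360) at 1.09, 1.58 and 0.522 FPKM in CO and 9.08, 8.46 and 12.7 FPKM in VO (3.23, limma adjusted p = 0.00382). Of the F-box proteins, which select proteins for degradation, 17 were higher (7.91%) and 14 lower (6.51%), and 12 and 23 under median scaling. F-box protein PP2-B15 (Cs3g14680) showed a large fall, at 70.2, 134 and 129 FPKM in CO and 6.61, 0.266 and 5.18 FPKM in VO (-5.53, limma adjusted p = 0.0174; up to 0.0643 with a variety left out).

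Called ribosomal protein genes were all higher, by small amounts. Of 171 cytosolic ribosomal protein genes 33 were higher and 0 lower, with a median log2 difference of 0.19, but without Xianfeng only 7 were called higher. The 60S ribosomal protein L8 gene (Cs1g25210) was at 202, 202 and 195 FPKM in CO and 280.4, 292 and 282 FPKM in VO (0.51, limma adjusted p = 0.00923). Of 55 translation factor genes 5 were higher (9.09%) and 0 lower, with a median log2 difference of 0.04. DEAD-box RNA helicases, a family counted after the values were seen, gave 11 higher and 0 lower of 44. Pentatricopeptide repeat (PPR) proteins, which edit and stabilise the RNA of chloroplasts and mitochondria, gave 41 higher and 2 lower of 372; the share of higher genes, 11%, did not exceed that over all genes, and 28 were higher and 5 lower under median scaling. Of the PPR genes, 6 (without Xianfeng) to 41 were called higher with a variety left out. Of 52 proteasome genes 1 was lower by limma: regulatory subunit 10 (Cs7g03160), at 46.8 ± 7.48 FPKM in CO and 15.5 ± 1.62 FPKM in VO (-1.59, limma adjusted p = 0.00179). Of 144 genes for the cell cycle, histones and cytoskeleton 16 were higher (11.1%) and 6 lower (4.17%), against 13.2% and 7.15% over all genes. In the cytoskeleton, tubulin beta-1 chain (Cs6g16900) was at 24.7, 22.4 and 22.3 FPKM in CO and 47.3, 58.8 and 57.2 FPKM in VO (log2 difference 1.23 ± 0.10 (SE), limma adjusted p = 0.00164). Of 21 tubulin genes 5 were higher and 0 lower, and of 38 kinesin genes 4 were higher and 1 lower. Both families were counted after the values were seen.

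Changes of over 8-fold on the log2(FPKM + 0.1) scale were more often falls: 36 genes rose and 50 fell by that much. Of the 20 largest rises among genes above 1 FPKM on the higher side, 9 had no Swissprot match, as had 7 of the 20 largest falls. The largest named falls were 2-hydroxyisoflavanone dehydratase (Cs9g06490), an isoflavone synthesis enzyme in legumes, at 5.08, 11.8 and 12.4 FPKM in CO and 0.0376, 0.0321 and 0.0502 FPKM in VO (log2 difference -6.14 ± 0.34 (SE), limma adjusted p = 0.000698), and cysteine proteinase inhibitor 5 (Cs3g05800), listed at 0 or close to it in VO and at 7.48, 8.15 and 6.54 FPKM in CO. Zinc finger MYM-type protein 1 (Cs7g19050) and ALP1-like protein (orange1.1t02080), both related to transposon proteins, were at 3.71, 6.45 and 4.33 FPKM and at 3.44, 3.81 and 4.1 FPKM in CO and below 0.04 FPKM in every VO variety. Both were near 0 in VO pulp as well, with log2 differences in pulp of -5.21, limma adjusted p = 0.000361 and of -4.87, limma adjusted p = 0.000145, respectively. Of 3700 genes without a Swissprot match 428 were higher and 250 lower. Called genes were spread over all 9 chromosomes, with 19.4% to 22.9% of the genes kept on each and 16.8% of those on unplaced sequence.

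Part of these differences were also called in pulp. Of the called genes 3383 were also kept in pulp, where 1321 were called in the same direction and 47 in the opposite direction. Over all 16759 genes kept in both tissues, 3254 were called in pulp (19.4%). Tissues were compared through the peel minus pulp value of each variety, and 825 of 16759 genes passed (4.92%), 350 with a higher and 475 with a lower VO minus CO difference in peel. These counts depended on single varieties: without Delta Valencia no gene passed in limma, although 3374 genes had an unadjusted p under 0.05, and 12 genes stood above 0 without Rohde Red, 39 without Jincheng, 54 without Cutter, 56 without Xianfeng and 263 without Taoye. Early light-induced protein 1 (Cs9g07670) was lower in VO peel and higher in VO pulp (2.00, limma adjusted p = 0.0336), with a difference of differences of -4.69 ± 0.69 (SE), limma adjusted p = 0.0274. The inhibitor of trypsin and hageman factor (Cs9g15430) was at 32.6, 28.2 and 26.3 FPKM in CO and 2.12, 5.47 and 1.01 FPKM in VO in peel (-3.70, limma adjusted p = 0.00777) and was higher in VO pulp (3.41, limma adjusted p = 0.00645). Mannan endo-1,4-beta-mannosidase 4 (orange1.1t00612), which cuts wall mannans, was at 0.779, 1.48 and 1.53 FPKM in CO and 5.03, 3.23 and 5.97 FPKM in VO in peel (1.84, limma adjusted p = 0.0115) and was lower in VO pulp (-2.31, limma adjusted p = 0.00345). WRKY75 (Cs7g11020), a senescence activator in Arabidopsis, was lower in peel (-0.90, limma adjusted p = 0.0196, and up to 0.0621 with a variety left out) and higher in pulp (0.45, limma adjusted p = 0.0221).

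By function, lists differed in how their genes divided between the tissues, given here as a description. Of 369 PPR genes kept in both tissues, 38 passed with a higher VO minus CO difference in peel than in pulp and 0 passed in the opposite direction, and the median difference was 0.33 against 0.02 over all genes. Their median log2 difference was 0.16 in peel and -0.18 in pulp. The counts were 24 and 0 under median scaling, and from 0 (without Delta Valencia) to 21 above 0 with a variety left out, where the median stayed between 0.29 and 0.37. Cutin and wax genes leaned the other way, with 2 above and 10 below 0 of 62, and a median of 0.06 in peel against 0.59 in pulp. MATE carriers gave 1 above and 8 below of 46. Over all 16759 genes kept in both tissues, 350 passed above and 475 below 0 (4.92% together). Without Delta Valencia no gene of any list passed, and without Rohde Red 12 genes passed above and 37 below 0 over all genes. Photosystem genes gave 0 and 0 of 40, with medians of 1.55 in peel and 1.08 in pulp.

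**Figure D5:**
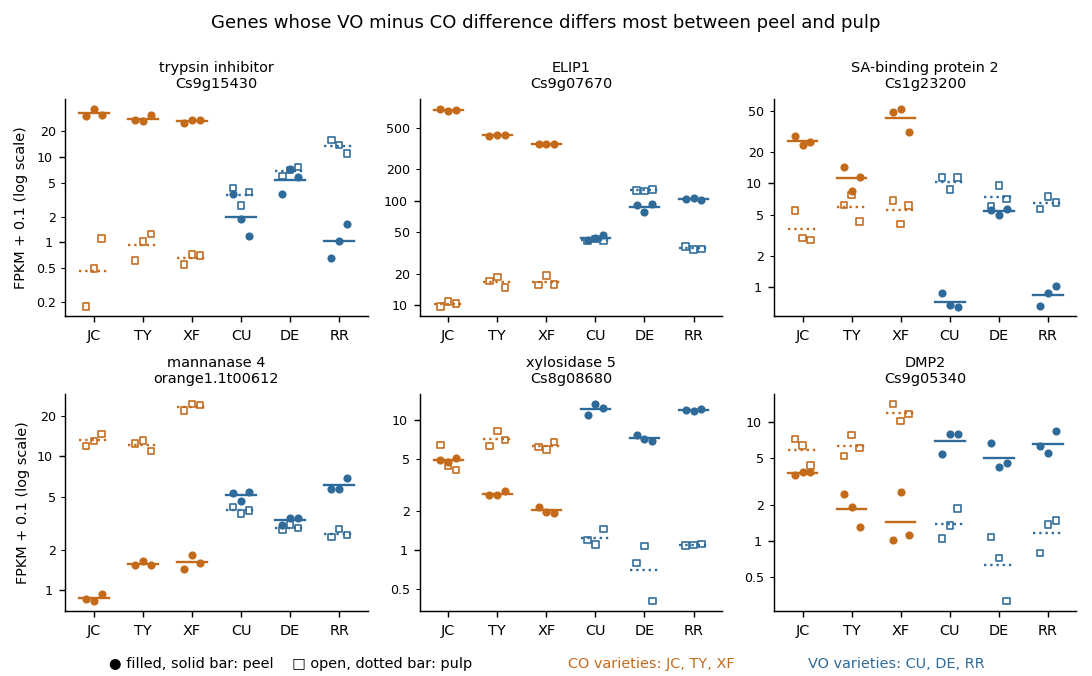
FPKM + 0.1 on a log axis for 6 genes whose VO minus CO difference differed between peel and pulp. They had the largest differences among genes that passed that test, were called in peel and had at least 1 FPKM on the higher side. Filled points and solid bars are peel libraries and variety means, open squares and dotted bars pulp, orange CO and blue VO. In the upper panels CO peel lies above VO peel and CO pulp lies at or below VO pulp; the lower panels show the opposite order.

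The varieties of a side were not interchangeable. For each called gene the position of a variety was placed on a line from the CO mean (0) to the VO mean (1). Among COs, Xianfeng lay farthest from the VOs, with a median position of -0.07 against 0.04 for Jincheng and 0.03 for Taoye, and it was the CO variety nearest to the VOs for 17.1% of called genes against 40.5% and 42.4%. Among VOs, Rohde Red lay farthest from the COs (median 1.03) and was the nearest variety for 24.6% of genes, against 37.5% for Cutter and 37.9% for Delta. Because the positions come from the genes that were called, they describe these varieties and were not tested.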

How the data were processed

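Peel RNA of 6 sweet orange varieties (3 libraries each) was sequenced as poly-A libraries, and the series also holds pulp of the same varieties. The processing notes of the submitters name TopHat2, RSEM and DESeq 1.10.1; the genome build is not given in the sources used here. The deposited table gives FPKM computed by the authors for 29654 genes, with a gene length and the Swissprot description of each gene. Multiplying FPKM by length and scaling each library gave whole fragments within 0.02 for 100% of values, and limma-voom on these fragments, run beside the main test, called 2451 genes higher and 1319 lower.

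Libraries were grouped by the variety and tissue in the labels. Values were averaged per variety as log2(FPKM + 0.1), genes with a variety mean of at least 0.3 FPKM were kept, and the sides were contrasted in limma 3.58.1 (R 4.3.3, empirical Bayes with trend) with Benjamini-Hochberg adjustment over all genes kept. The difference between tissues was fitted on peel minus pulp values of each variety. Tables and plots were made in Python 3.11.15 with pandas 2.3.3, numpy 2.4.6 and matplotlib 3.10.9. On simulated data of 18375 genes for the peel comparison, 74 of 100 genes changed by log2 1, 95 of 100 changed by log2 2 and 13 of 18175 unchanged genes were called. In that simulation genes of low expression were given no change and varieties varied independently. Far fewer genes changed in it than were called in the data, so these rates need not hold for the real comparison.

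Genes were grouped in 79 lists by words in the Swissprot description. The groups, lists and questions were chosen with earlier results of these data known, and families within lists and a few single genes were chosen after their values were seen. Named genes were called and had at least 1 FPKM on the higher side: up to 6 per list (the 3 most abundant and the 3 with the largest difference), the 20 largest rises and falls, and the 6 largest differences between tissues. Other pseudocounts, filters, scalings, models and sets of varieties or libraries were tried as alternatives. The study describes the libraries of a variety as biological replicates of several trees each; their spread does not cover that between varieties and was not used as error. No sequence is shown, because no genome or sequence table was used here.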

Additional observations from a re-analysis of the deposited data

Results flagged for a closer look

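A limma test of the VO minus CO difference in peel against that in pulp was passed by 825 of 16759 genes (4.92%). Given here are the 6 largest differences among genes that passed, were called in peel and had at least 1 FPKM on the higher side. Of these 6 genes, 3 were relatively lower in VO peel. The inhibitor of trypsin and hageman factor (Cs9g15430) gave a log2 difference of differences of -7.11, early light-induced protein 1 (Cs9g07670) gave -4.69 and salicylic acid-binding protein 2 (Cs1g23200), a methyl salicylate esterase in tobacco, gave -4.67. The others were relatively higher in VO peel, with mannan endo-1,4-beta-mannosidase 4 (orange1.1t00612) at 4.15, beta-D-xylosidase 5 (Cs8g08680), an enzyme that trims xylan, at 4.39 and DMP2 (Cs9g05340), a membrane protein, at 4.42. With a variety left out, the test was lost in 3 of 6 fits for Cs9g15430 (limma adjusted p from 0.0359 to 0.0609), in 5 for Cs9g07670 (0.0429 to 0.0891) and in 6 for Cs1g23200 (0.0502 to 0.15). It was lost in 1 fit for orange1.1t00612 (0.0157 to 0.0609), in 2 for Cs8g08680 (0.00459 to 0.0609) and in 3 for Cs9g05340 (0.0286 to 0.0802).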

How the results depend on the processing

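The VO to CO direction of every named gene held under every alternative run, and 365 of 395 calls held with each library left out, but only 211 with each variety left out. With a variety left out, 967 to 2188 genes were higher and 560 to 1194 lower in VO peel. With a library left out the ranges were 2312 to 2403 and 1251 to 1307. With libraries as replicates, 5672 genes were higher and 3679 lower without a replicate block, and 5508 and 3545 with the replicate block. The replicate numbers did not pair the libraries, as the mean correlation of deviations between libraries of the same number was -0.00322 over 45 pairs with 0 over 0.1, and 2 of 18 libraries correlated best with their own number. With the variety as a random block, 3535 were higher and 2221 lower. Requiring a log2 difference of at least 1 left 807 and 491. Median scaling gave 1974 and 1689, while it shifted the median of all genes by less than 0.1 on the log2 scale. For the difference between tissues, 696 genes stood above 0 with a pseudocount of 1. With a variety left out, 0 to 263 stood above and 0 to 432 below 0, both lowest without Delta Valencia. The cause of these shifts was not tested. Genes near 0.1 FPKM are limited by depth and by the pseudocount.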
